A study of Mus musculus with 6 samples.

Results

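Mammalian cells recognise double-stranded RNA with a small set of proteins, and the genes of 7 of these proteins were examined in LSK cells with and without Ash2l. The genes were Ddx58 (RIG-I), Ifih1 (MDA5), Dhx58 (LGP2), Eif2ak2 (PKR), Tlr3, Ticam1 (TRIF) and Mavs. They were grouped by the function of their products, with earlier results of these data known. A gene was represented by the probe set annotated to that gene alone, and, where several existed, by that of the highest mean signal. Each of the 7 genes had 1 such probe set, and together they were 7 of 30738 named genes on the array.

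Total RNA of sorted LSK cells was measured on 6 mouse transcriptome arrays. LSK cells are lineage-negative, Sca-1+ and Kit+ marrow cells and hold the hematopoietic stem and multipotent progenitor cells. The 3 KO samples came from Ash2l fl/fl mice, in which exon 4 is floxed, that carried an Mx1-Cre transgene; fl/fl mice that lacked Cre gave the 3 control samples. Mice of both groups received injections on days 1, 3 and 5, and marrow was collected on day 10. The paper names the injected compound pIC, a synthetic RNA, whereas the sample labels name poly(dIdC), and this difference is not resolved by the labels. The Mx1 promoter responds to interferon in many cell types, so that Cre was not restricted to LSK cells, and the loss of Ash2l and the presence of Cre cannot be told apart in this comparison. The labels name biological replicates without saying whether an array holds 1 mouse or several, so that p-values measure the spread between these samples, and the number of arrays limits the precision.

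RIG-I and MDA5 are cytosolic helicases that bind foreign or unedited double-stranded RNA and signal through MAVS, a protein of the outer mitochondrial membrane, to IRF3 and NF-kB and from there to the interferon genes. LGP2 is related to both but lacks the signalling domains, TLR3 senses double-stranded RNA in endosomes through its adaptor TRIF, and PKR is a kinase that stops translation by phosphorylating eIF2alpha. pIC is a synthetic double-stranded RNA used as a ligand of TLR3 and MDA5, and the genes of the cytosolic sensors and of PKR are themselves induced by interferon in many cells.

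Promoter windows were available for 6 of the 7 genes, and 4 of them are shown because they hold a motif of the pathways that these sensors feed. Each window runs from 250 bases before to 50 bases after the transcript start, is written in the direction of the gene, and comes from RefSeq on GRCm38.p6. Capitals mark matches to an interferon-stimulated response element (ISRE), searched as GAAANNGAAA, to a gamma-activated site (GAS), searched as TTCNNNGAA, and to a kappa B site, searched as GGGANNNTCC, each on both strands. The Ddx58 window is chr4:40239776-40240075, the Ifih1 window chr2:62646206-62646505, the Eif2ak2 window chr17:78882523-78882822 and the Tlr3 window chr8:45410331-45410630, all on the minus strand.
Ddx58: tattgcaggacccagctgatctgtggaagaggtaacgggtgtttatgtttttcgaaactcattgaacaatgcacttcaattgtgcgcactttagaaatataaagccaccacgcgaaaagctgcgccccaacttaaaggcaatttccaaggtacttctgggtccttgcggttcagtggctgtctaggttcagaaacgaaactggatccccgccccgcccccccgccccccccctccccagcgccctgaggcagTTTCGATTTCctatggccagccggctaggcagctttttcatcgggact
Ifih1: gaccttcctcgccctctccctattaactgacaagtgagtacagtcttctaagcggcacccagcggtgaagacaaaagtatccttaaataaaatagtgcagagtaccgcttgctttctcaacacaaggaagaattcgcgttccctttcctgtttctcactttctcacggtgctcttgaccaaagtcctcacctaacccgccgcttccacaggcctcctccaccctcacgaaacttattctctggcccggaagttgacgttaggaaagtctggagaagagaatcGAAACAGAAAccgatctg
Eif2ak2: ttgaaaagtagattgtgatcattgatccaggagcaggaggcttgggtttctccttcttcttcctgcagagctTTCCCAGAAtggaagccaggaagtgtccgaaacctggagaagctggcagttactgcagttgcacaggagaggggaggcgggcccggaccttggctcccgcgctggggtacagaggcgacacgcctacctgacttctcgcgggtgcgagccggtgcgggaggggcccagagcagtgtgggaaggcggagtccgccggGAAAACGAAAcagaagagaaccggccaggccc
Tlr3: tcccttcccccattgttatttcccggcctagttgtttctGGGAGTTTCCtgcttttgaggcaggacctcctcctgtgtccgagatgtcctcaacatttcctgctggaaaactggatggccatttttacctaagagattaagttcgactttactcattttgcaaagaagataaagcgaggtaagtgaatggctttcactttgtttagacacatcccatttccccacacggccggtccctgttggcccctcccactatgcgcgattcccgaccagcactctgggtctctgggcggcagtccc
An ISRE match lay in the windows of 3 of 6 genes, Ddx58, Ifih1 and Eif2ak2, against 1131 of all 32851 windows of this length (3.44%). It began 3 bases after the start in Ddx58, on the reverse strand as TTTCGATTTC at chr4:40239814-40239823. In Ifih1 it was GAAACAGAAA, 33 bases after the start, and in Eif2ak2 GAAAACGAAA, 19 bases after the start. The Eif2ak2 window also held a GAS match, TTCCCAGAA, 178 bases before the start, a motif found in 8.30% of windows. The Tlr3 window held a kappa B match, GGGAGTTTCC, 211 bases before the start, a motif found in 4.59% of windows. The windows of Ticam1 and Mavs held none of these letter patterns. The matches are descriptions of sequence, and binding was not measured.

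**Figure D1:**
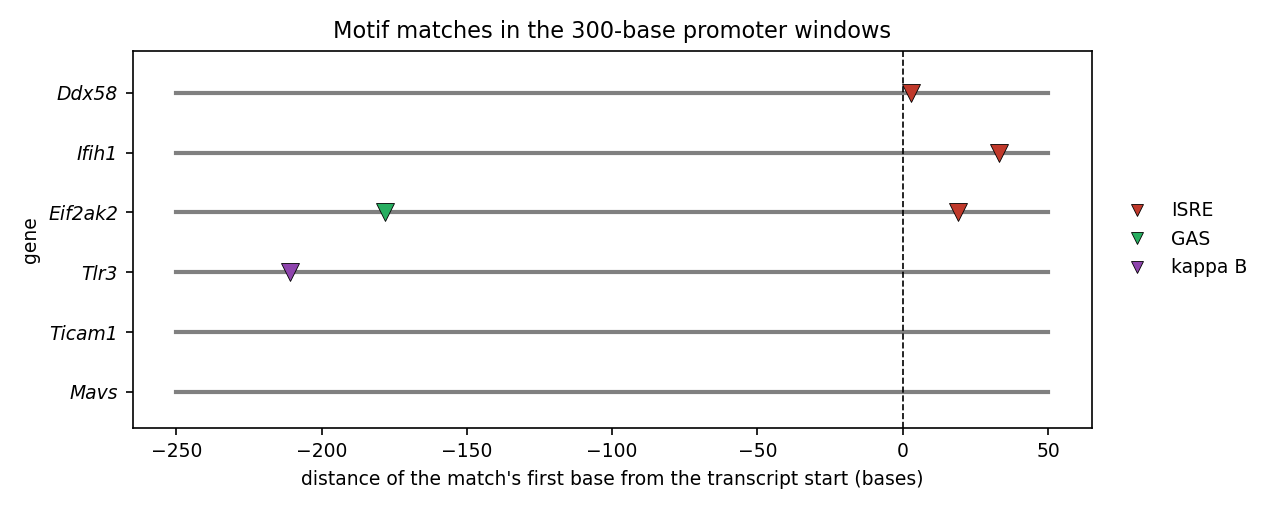
Positions of ISRE, GAS and kappa B matches in the promoter windows of 6 genes, drawn by the distance of the first base of the match from the transcript start in bases, with 0 at the start (dashed line). The 3 ISRE matches lie 3 to 33 bases after the start, and the windows of Ticam1 and Mavs are empty.

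The medians of the 6 arrays lay between 6.02 and 6.09 on the log2 scale, on which 1 unit is a 2-fold difference in signal. Ash2l had a log2 signal between 9.63 and 9.65 in KO and between 10.23 and 10.76 in control LSK cells, a 1.84-fold lower signal in KO (log2 fold change -0.88 with a standard error, SE, of 0.15, limma adjusted p = 0.198). This is the signal of a probe set for the gene and not of the floxed exon alone, so it does not measure the efficiency of the knockout. The paper reports a far larger loss of RNA with that exon and an almost complete loss of the protein in LSK cells. Control replicate 3 differed from the other control arrays in many genes: 864 of the named genes (2.81%) were over 2-fold higher in it than the mean of control replicates 1 and 2. The same share was not computed for the other controls. The Ash2l signal of control replicate 3, 10.23, was the lowest of the controls, and without this array the log2 fold change of Ash2l was -1.02. The comparison was also made without that array. It was the highest control in Ddx58, Ifih1, Dhx58 and Eif2ak2, so leaving it out by itself raises their differences and lowers their control spread. The p-values without it are therefore descriptive.

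The RIG-I gene was the sensor with the largest difference between the group means. Ddx58 had log2 signals of 10.73, 10.98 and 10.90 in the KO arrays and of 8.84, 8.47 and 10.77 in the control arrays. The KO arrays lay close together, whereas in the control group replicate 3 was at the KO level and the other control arrays were far below, so that the groups overlapped. The means were 10.87 ± 0.13 and 9.36 ± 1.24 (SD, n = 3 each), a 2.85-fold higher signal in KO with a log2 fold change of 1.51, an SE of 0.56 and a 95% interval of 0.19 to 2.83. With p-values adjusted over all probe sets this difference did not pass (limma adjusted p = 0.408), and the exact two-sided permutation test gave p = 0.2, where 0.1 is the smallest value that 3 against 3 arrays allow. Fewer cells of a type and less RNA per cell cannot be told apart in these bulk samples. Without control replicate 3 the log2 fold change was 2.22 (SE 0.16, limma adjusted p = 0.00548), which is 4.64-fold.

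Ifih1, the gene of MDA5, gave 9.40, 9.58 and 9.38 in KO and 8.09, 8.01 and 10.09 in control. Here the highest of all 6 arrays was a control array, replicate 3, and the lowest arrays were the other controls. The log2 fold change was 0.72 (SE 0.53, 95% interval -0.54 to 1.99), 1.65-fold, with a limma adjusted p of 0.688 and an exact permutation p of 0.4. Control replicate 3 exceeded the KO mean, which was 0.64 lower on the log2 scale (KO mean minus control replicate 3, -0.64). Among the 4 genes with high signals in this array, only Ifih1 was above every KO array there. Without this array the log2 fold change was 1.40 (SE 0.13, limma adjusted p = 0.00748).

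Dhx58 encodes LGP2, the regulator of both other helicases. Its signals were 9.36, 9.36 and 9.45 in KO and 8.01, 7.94 and 9.27 in control. All KO arrays were above all control arrays, although control replicate 3 was only just below them. The log2 fold change was 0.98 (SE 0.35, 95% interval 0.16 to 1.80), 1.98-fold, with a limma adjusted p of 0.39. The exact permutation p was 0.1, the smallest possible. Leaving out control replicate 3 gave 1.42 (SE 0.12, limma adjusted p = 0.00611), or 2.67-fold.

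Eif2ak2, the gene of the kinase PKR, was high and low in the same arrays as Dhx58. It had log2 signals of 12.19, 12.13 and 12.24 in KO and of 10.60, 10.60 and 12.10 in control. The groups did not overlap, but the gap between the lowest KO array and control replicate 3 was small beside the distance of that array from the other controls. PKR signal in KO was 2.12 times that in control (log2 fold change 1.09, SE 0.40, 95% interval 0.15 to 2.03, limma adjusted p = 0.402; exact permutation p = 0.1). Without control replicate 3 it was 3.00 times that in control (log2 difference 1.59, SE 0.11, limma adjusted p = 0.00548).

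**Figure D2:**
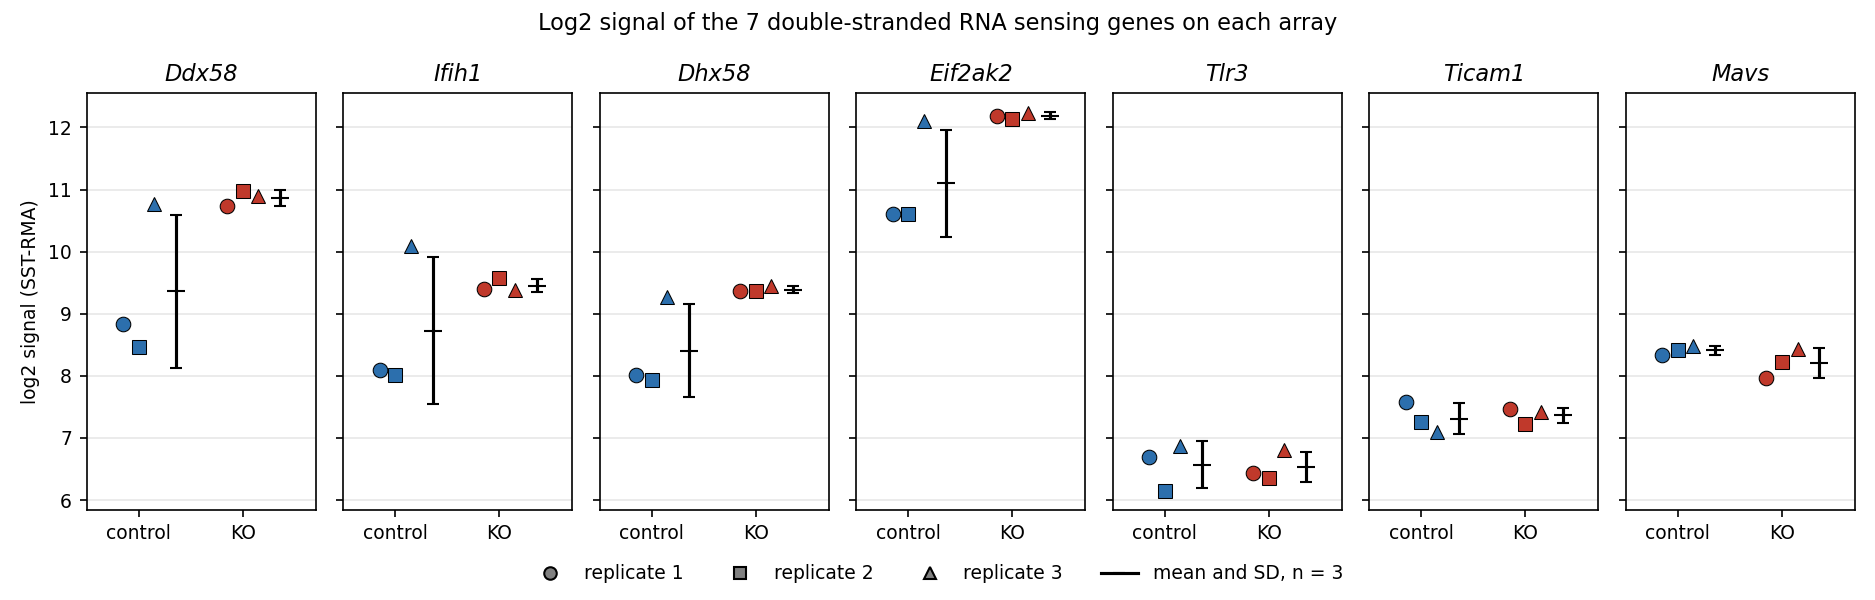
Log2 signal (y axis) of the 7 genes on each of the 6 arrays, control in blue and KO in red, with the replicate given by the shape of the point and the mean and SD of each group (n = 3) as bars. Control replicate 3 (blue triangle) lies between 9.27 and 12.10 in Dhx58, Ifih1, Ddx58 and Eif2ak2, near or above the KO arrays, while Tlr3, Ticam1 and Mavs lie within a narrow range in both groups.

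The mitochondrial adaptor did not share this pattern. Mavs had log2 signals of 7.96, 8.22 and 8.44 in KO and of 8.33, 8.42 and 8.48 in control. The 6 arrays overlapped, and the lowest values were those of KO replicates 1 and 2. The log2 fold change was -0.20 (SE 0.15, 95% interval -0.55 to 0.14, limma adjusted p = 0.68), and -0.17 without control replicate 3. The upper bound of this interval is below the log2 fold changes of Ddx58, Dhx58 and Eif2ak2, although a difference between genes was not tested.

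The endosomal route was represented by Tlr3, the receptor, and Ticam1, its adaptor. Tlr3 gave 6.44, 6.35 and 6.80 in KO and 6.69, 6.15 and 6.87 in control. The groups overlapped throughout. The log2 fold change of Tlr3 was -0.04 (SE 0.22, 95% interval -0.56 to 0.48, limma adjusted p = 0.969), and its sign turned when control replicate 1, control replicate 3 or KO replicate 2 was left out, with values up to 0.11, and was 0.00 without KO replicate 1. Ticam1 had 7.46, 7.23 and 7.41 in KO and 7.58, 7.25 and 7.10 in control. In this gene control replicate 3 was the lowest array, not the highest. The log2 fold change of Ticam1 was 0.06 (SE 0.15, 95% interval -0.31 to 0.42, limma adjusted p = 0.933), and -0.05 without control replicate 3.

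The counts of the 7 genes were read against all 30738 named genes. At an adjusted p under 0.05 from limma 0 of the 7 genes were higher and 0 lower, and so were 0 of all named genes (0%) in either direction. For changes over 2-fold with p under 0.01, taken here before adjustment, 0 of the 7 genes were higher in KO, against 166 named genes (0.54%). This count depended on the setting: it was 3 with array weights, 4 without control replicate 3 and 4 with a block by the number in the sample descriptions. In that block Ddx58 had 2.16 and Eif2ak2 1.62 on the log2 scale. The block leaves control replicate 3 without weight, so it is not independent of leaving that array out. The count stayed at 0 with quantile normalization, median centring, a trended robust prior in limma, a block by the replicate number in the titles and the methods' t-test. At an unadjusted p under 0.05, 3 genes were higher (Ddx58, Dhx58 and Eif2ak2), where 1408 named genes were (4.58%), and 0 were lower, where 2099 were (6.83%). This count of 3 fell to 0 without KO replicate 1, 2 or 3 and without control replicate 1 or 2, was 4 without control replicate 3, and was 0 in the methods' t-test. The share of all named genes at these unadjusted thresholds was not computed under the alternatives, so their counts have no background beside them. All KO arrays were above all control arrays in 2 of the 7 genes, Dhx58 and Eif2ak2, against 5.82% of the named genes, and below them in 0, against 11.0%.

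Without control replicate 3, 4 of the 7 genes were higher in KO at an adjusted p under 0.05 from limma, against 826 named genes (2.69%), and 0 were lower, against 535 (1.74%). The 4 were Ddx58, Ifih1, Dhx58 and Eif2ak2. The median log2 fold change of the 7 genes was 0.72 with all arrays and 1.40 without that array, and the median over all named genes was -0.03 and -0.02. Without control replicate 1 the log2 fold changes of these 4 genes were 1.25, 0.40, 0.78 and 0.84 in that order, and without control replicate 2 they were 1.06, 0.36, 0.75 and 0.84. They kept their direction in each case, at smaller values than with all arrays.

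**Figure D3:**
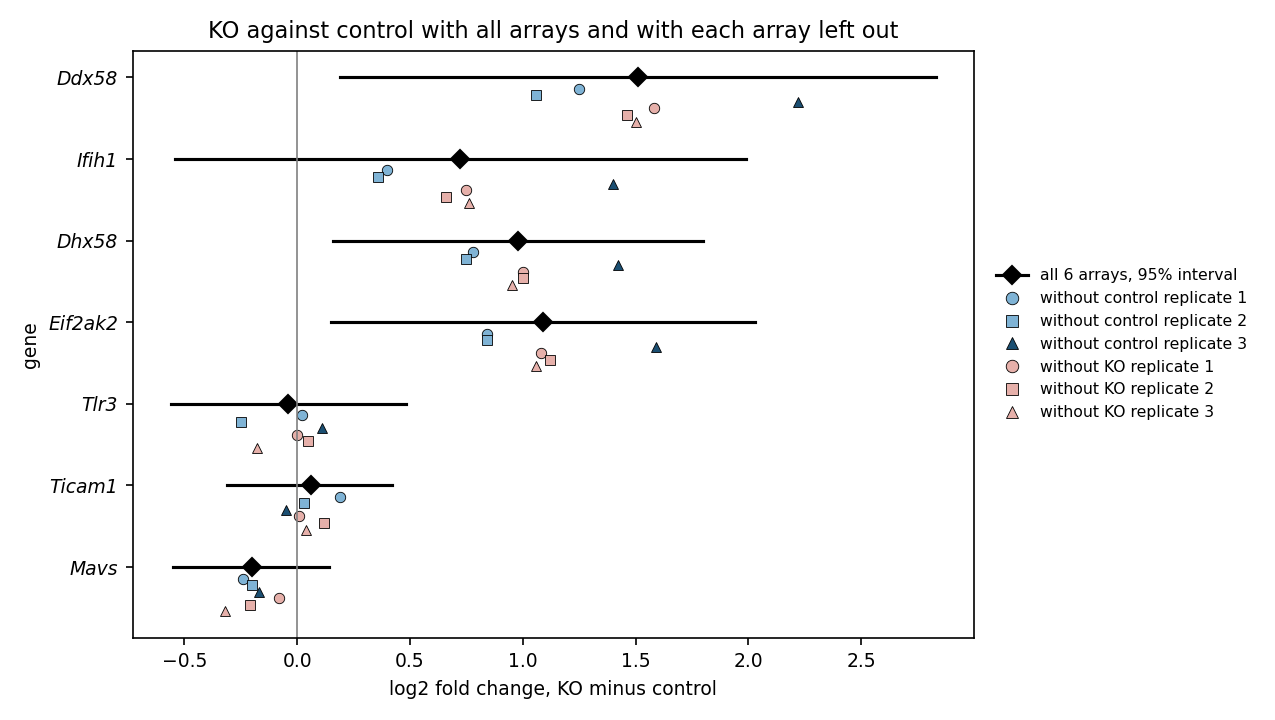
Log2 fold change, KO minus control (x axis), of each gene with all 6 arrays (black diamond, line for the 95% interval) and with each array left out (colored points, blue for a control array and red for a KO array). Leaving out control replicate 3 moves Ddx58 from 1.51 to 2.22 and Ifih1 from 0.72 to 1.40, whereas Mavs stays between -0.32 and -0.08.

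Control replicate 3 was itself compared with the mean of control replicates 1 and 2, as a description of 1 array. It was 4.33-fold higher in Ddx58, 4.11-fold in Ifih1, 2.83-fold in Eif2ak2 and 2.45-fold in Dhx58. Those 4 of the 7 genes were over 2-fold higher in it, a share to be set beside the 2.81% of all named genes. For Tlr3, Mavs and Ticam1 the differences were 0.45, 0.11 and -0.32 on the log2 scale. The KO mean lay within 0.12 of this array in Ddx58 (0.10), Dhx58 (0.12) and Eif2ak2 (0.09). The control group was the more variable one in 6 of the 7 genes, all except Mavs (SD 0.08 in control and 0.24 in KO), with a median SD over the 7 genes of 0.75 in control and 0.12 in KO, where all named genes had medians of 0.17 and 0.13. The range over the 6 arrays exceeded 1 on the log2 scale in 4 of the 7 genes (57.1%) and in 13.5% of all named genes.

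The 4 genes moved together over the arrays. Pearson's r over the 6 arrays was 0.999 between Dhx58 and Eif2ak2, 0.994 between Ddx58 and Dhx58 and 0.99 between Ddx58 and Eif2ak2. Ifih1 had lower values, 0.942 with Ddx58, 0.936 with Eif2ak2 and 0.929 with Dhx58. Tlr3, Ticam1 and Mavs had r between -0.509 and 0.463 with the 4. These values describe 6 arrays that share their group means and 1 array that stands apart, and no test was made.

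For each gene the 3 genes with the most similar pattern were taken from genes with a mean signal at or above the array median and a range over the arrays of at least 0.5 times its own (Pearson's r over 6 arrays). Ddx58 was most like Isg15, the gene of the ubiquitin-like interferon-stimulated protein (r = 0.9998), Siae (0.9990) and Il15, a cytokine gene (0.9978). Isg15 had log2 signals of 10.58, 10.80 and 10.78 in KO and of 8.57, 8.21 and 10.58 in control, so that high and low arrays were those of Ddx58. Ifih1 was most like Fkbp7 (0.9965), Abcg2, an efflux transporter of stem cells (0.9950), and Cpne3 (0.9949), and Abcg2 shared with it a control replicate 3 (10.68) above the KO arrays (10.12, 10.25 and 10.26).
The pattern of Dhx58 was closest to Irf7, the transcription factor that amplifies interferon responses (0.9995), to Eif2ak2 (0.9989) and to Trim13, a ubiquitin ligase gene (0.9987). Eif2ak2 was closest to Mgst3, a microsomal glutathione transferase (0.9994), Dhx58 (0.9989) and Ints10, an Integrator subunit (0.9985). Tlr3 was closest to Ap1s1 (0.9846), Fam185a (0.9833) and Sprtn (0.9823), Ticam1 to Gtf2f2 (0.9823), Snord73a (0.9800) and Rpl35a-ps5 (0.9763), and Mavs to Zxdb (0.9488), Pik3ca (0.9473) and Mospd4 (0.9433). The candidates numbered from 1724 for Ddx58 to 11426 for Ticam1, and with 6 arrays high values of r arise in many of them.

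The surrounding pathway was described from 8 lists, of which 162 of 178 genes were measured, and no gene of any list passed an adjusted p under 0.05 from limma with all arrays. Among 22 measured cofactors and regulators of RIG-I, MDA5 and MAVS the median log2 fold change was 0.09, with 1 gene higher and 1 lower at an unadjusted p under 0.05. These counts are no larger than the background of 4.58% higher and 6.83% lower among all named genes, the shares beside which the counts of all lists at this threshold stand. The higher one was Ddx60, a helicase gene induced by interferon, with 1.32 (SE 0.53) and 1.97 without control replicate 3, and 0.86 without control replicate 2. The lower one was Zcchc3, a cofactor of RIG-I and MDA5, with -0.81 (SE 0.27). Trim25, the ubiquitin ligase described for RIG-I, had a log2 fold change of 0.15.

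Among 25 measured adaptors, kinases and transcription factors downstream of MAVS and TRIF the median was 0.10, and 3 genes were higher and 1 lower at that threshold. Irf7 was at 8.84, 8.91 and 8.95 in KO and at 7.25, 7.17 and 8.73 in control (log2 fold change 1.18, SE 0.40), which repeats the layout of Dhx58. The NF-kB subunit Rel had 0.48 (SE 0.17) and the kinase Ripk1 0.39 (SE 0.16). Tnfaip3, the gene of the NF-kB inhibitor A20, was at 6.86, 7.23 and 7.22 in KO and at 7.95, 8.07 and 7.79 in control. All KO arrays were below all controls, and control replicate 3 lay with the other controls (log2 fold change -0.83, SE 0.15, limma adjusted p = 0.2). Tbk1 and Irf3, the kinase and the factor that MAVS and TRIF share, had -0.01 and -0.14.

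The other Toll-like receptors with their accessory proteins and adaptors, 23 genes, had a median of -0.01, with 6 higher and 2 lower, where the background shares were 4.58% and 6.83%, so that the lower count is near the background. The log2 fold changes were 0.47 for Tlr4 (SE 0.11) and 1.25 for Tlr12 (SE 0.36). Ly96 (MD-2), the partner of TLR4, had -0.54 (SE 0.16), and Hsp90b1, a chaperone of Toll-like receptors, -0.61 (SE 0.19). Unc93b1, named here after its values were seen, had -1.02 (SE 0.51), and -1.64 without control replicate 3. Without that array 1 gene of the list was higher and 2 were lower at an adjusted p under 0.05 from limma (2.69% and 1.74% of all named genes). Tlr3 itself had -0.04, and its difference from the other receptors was not tested.

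The eIF2 arm, 18 measured genes of the other eIF2alpha kinases, eIF2, eIF2B, PKR inhibitors and phosphatase subunits, had a median of 0.00, with 0 genes higher and 3 lower at an unadjusted p under 0.05. Atf4, the transcription factor translated when eIF2alpha is phosphorylated, had -0.51 and Ppp1r15b, a phosphatase subunit that reverses that phosphorylation, -0.49 (SE 0.14 each), and Ddit3 (CHOP) had -0.29 (SE 0.11). The other kinases of eIF2alpha, Eif2ak1, Eif2ak3 and Eif2ak4, had 0.01, -0.28 and 0.22, beside 1.09 for Eif2ak2. Whether Eif2ak2 differed from them was not tested.

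Other proteins that bind or act on double-stranded RNA, 23 genes, had a median of 0.05 that ran from -0.03 to 0.17 with each array left out. At an unadjusted p under 0.05, 7 were higher and 1 lower (4.58% and 6.83% of all named genes), and 10 were higher and 0 lower at an adjusted p under 0.05 from limma without control replicate 3 (2.69% and 1.74%). Oas2, one of the synthetases that activate RNase L, was at 10.97, 10.97 and 11.11 in KO and at 7.52, 7.13 and 10.33 in control. Control replicate 3 was below the KO arrays but 3.01 above the mean of the other controls on the log2 scale. The log2 fold change of Oas2 was 2.69 (SE 0.78), and 3.69 without that array. Zbp1, a sensor of Z-form nucleic acid, had 1.91 (SE 0.48), Oas1b 1.28 (SE 0.30), and Stau2, an RNA transport protein, -0.74 (SE 0.17).

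The genes at the end of the pathway fell into different patterns. The 18 measured type I and type III interferon genes, whose near-identical copies may share probes, had -0.05 as their median log2 fold change, with 0 genes higher or lower at an unadjusted p under 0.05, and their mean signals lay between 4.11 and 7.19. Ifnb1, the interferon beta gene, was at 5.87, 6.05 and 5.52 in KO and at 5.87, 5.75 and 6.11 in control (log2 fold change -0.10, SE 0.17, limma adjusted p = 0.891). Whether a probe set was above background was not measured here, so these values are not read as expression.

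The 11 cytokine and chemokine genes induced through IRF3 and NF-kB had -0.05 as the median log2 fold change, with 6 below 0, and 0.38 without control replicate 3. At an unadjusted p under 0.05, 1 was higher and 0 were lower. In this list 7 were over 2-fold higher in control replicate 3 than in the other controls (2.81% of all named genes), and the median difference was 1.63 on the log2 scale. Il15 differed by 1.11 on the log2 scale (SE 0.44). Cxcl10, a chemokine gene named here after its values were seen, was at 7.30, 7.26 and 7.06 in KO and at 5.53, 5.07 and 7.77 in control. Its control replicate 3 was above the KO arrays, as in Ifih1. Ccl4 and Ccl3, chemokine genes also named after their values were seen, had -0.69 (SE 0.52) and -0.29 (SE 0.78). Without control replicate 3, the highest array in both, they had -0.04 and 0.67.

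In 22 measured interferon-stimulated genes taken for comparison the median log2 fold change was 0.82, with 15 higher and 0 lower at an unadjusted p under 0.05. All KO arrays were above all controls in 10 of them (5.82% of all named genes). Without control replicate 3 the median was 1.19, and 19 genes were higher at an adjusted p under 0.05 from limma (2.69% of all named genes). Mx1, whose promoter drives Cre in the KO mice, was at 7.56, 8.09 and 7.62 in KO and at 6.19, 6.52 and 7.39 in control (log2 fold change 1.06, SE 0.32, limma adjusted p = 0.333). Ifit1 had 1.68 (SE 0.46), Samd9l 1.13 (SE 0.30) and Trim30a 0.71 (SE 0.19). In this list 12 genes were over 2-fold higher in control replicate 3 than in the other controls (2.81% of all named genes). The list median in that array was 0.32 above the mean of the 6 arrays, the value of KO replicate 1. Beside 3.44% of all windows, an ISRE match lay in the promoter windows of 7 of 17 genes of this list, 11 of 19 interferon genes, 4 of 20 other double-stranded RNA proteins, 3 of 17 genes of the eIF2 arm and 3 of 19 of the other Toll-like receptor list. It lay in 2 of 25 signalling genes, 1 of 17 regulators and 1 of 7 cytokine and chemokine genes.

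**Figure D4:**
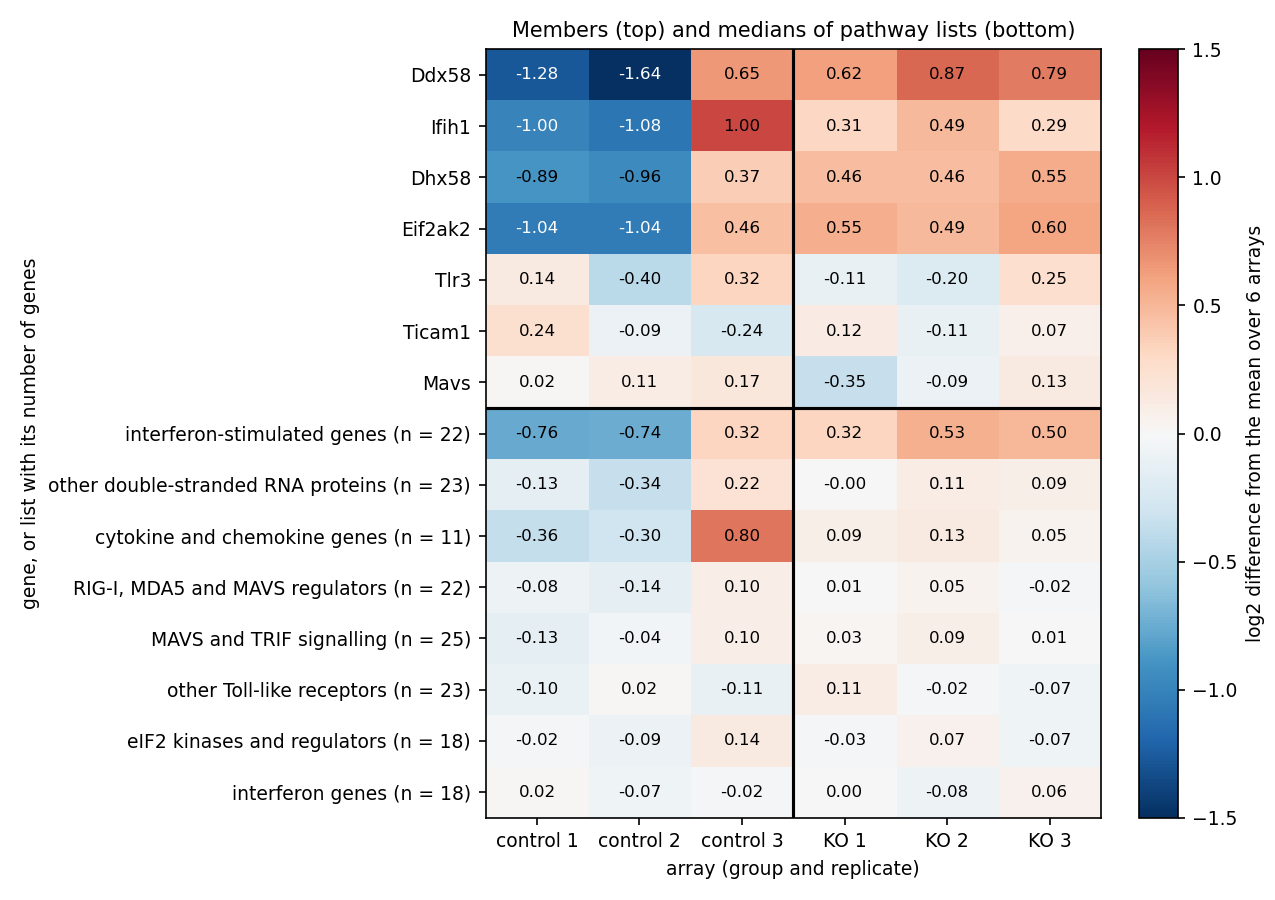
Log2 difference of each array (columns) from the mean over the 6 arrays, for the 7 genes (top rows) and as the median of each pathway list (bottom rows, with n genes), red for higher and blue for lower. Control replicate 3 has 0.65 in Ddx58 and 1.00 in Ifih1 and 0.80 in the cytokine and chemokine list, whereas the interferon gene list lies between -0.08 and 0.06 on all arrays.

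Markers of LSK cells and of other marrow cell types were read on the same arrays. The study's methods name a magnetic depletion of lineage-positive cells before the sort for Sca-1 and Kit, steps meant to remove mature B, T, granulocytic and erythroid cells. In control replicate 3 the 9 measured LSK markers were higher than in the other controls by a median of 1.26 on the log2 scale and 5 megakaryocyte markers by 1.40, while 10 granulocyte markers were at -2.46 and 6 B cell markers at -3.88. Against these medians, Flt3 was at -0.42 among the LSK markers, and Ly6g (0.56) and Cxcr2 (1.75) were above 0 among the granulocyte markers. The 9 T and NK markers were at -0.57, with Nkg7 (1.88) and Gzma (0.43) above 0, and 3 erythroid markers at -0.38. The 10 macrophage and monocyte markers differed by -0.13, the 6 plasmacytoid dendritic cell markers by -0.25 and the 8 genes listed for type 1 conventional dendritic cells, a cell type rich in TLR3, by -0.37. The last list includes Flt3l, the gene of a ligand and not a marker of these cells, which was at 0.86 where the others were below 0. The B cell list had medians between -1.28 and -0.54 in the KO arrays and between -1.85 and 2.34 in the control arrays, relative to the mean of the 6. For LSK markers these were -0.08 to 0.06 in KO and -0.75 to 0.69 in control, and the KO against control median was 0.02. Of these markers 5 were above 0, Cd34 highest at 0.84, and 4 below, Flt3 lowest at -1.22. For the other lists the KO against control medians were -1.46 for B cells (0 of 6 markers above 0), 0.98 for T and NK cells (8 of 9 above 0), 0.63 for megakaryocytes, -0.37 for type 1 conventional dendritic cells, -0.34 for 3 erythroid markers, 0.18 for macrophages and monocytes, -0.10 for plasmacytoid dendritic cells and 0.03 for granulocytes. A median near 0 did not mean that each marker was near 0. In the granulocyte list 5 markers were above 0, S100a8 highest at 4.07, and 5 below, Ngp lowest at -2.15. In the macrophage and monocyte list 6 were above 0, Lyz2 highest at 2.69, and 4 below, Csf1r lowest at -0.38. The plasmacytoid dendritic cell list had 3 above 0, Bst2 highest at 0.68, and 3 below, Siglech lowest at -1.60. Bst2 is also in the list of interferon-stimulated genes. The T and NK list ran from -0.78 to 0.91 in KO and from -0.74 to 0.22 in control, so that the groups overlapped, and no marker passed an adjusted p under 0.05 from limma. Control replicates 1 and 2, the arrays with low Ddx58, Ifih1, Dhx58 and Eif2ak2, were thus those with higher medians of the B cell list and lower medians of the LSK list (-0.21 and -0.75). The LSK markers did not all go this way. In control replicate 1 Flt3 (12.80), Hlf (10.97) and Mecom (7.32) were above every KO array, Meis1 was among them, and Kit, Cd34, Slamf1, Gata2 and Procr were below. The part of cell composition in the differences of the 4 genes was not tested.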

How the data were processed

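Log2 signals of 65956 probe sets on 6 MTA-1.0 arrays, 3 KO and 3 control, were used as the authors deposited them. RNA (40 ng per sample) was amplified, labeled and hybridized by the authors, and the arrays were normalized together with SST-RMA, which gives background-corrected, quantile-normalized values on the log2 scale (2.37 to 19.89). Such values compress differences of dim probe sets, carry no detection call and allow no comparison of levels between genes. A platform annotation named 1 gene for 31292 probe sets, several genes for 1522 and none for 33142; of 30738 named genes 439 had several probe sets. All per-sample columns were used (0 left out).

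KO and control were compared with limma 3.58.1 in R 4.3.3 (lmFit, eBayes, no filter, no block), with Benjamini-Hochberg adjustment over all probe sets and an exact two-sided permutation test of the 7 genes. The fit was tested on simulated data. Lists were described by counts and medians, with no test, and n was 3 arrays per group throughout. The genes, lists and comparisons were chosen with earlier results of these data known. The text names the 7 genes, Ash2l, Mx1, up to 4 genes per pathway list with the smallest unadjusted p under 0.05, and the 3 genes most like each of the 7 by Pearson's r, without predicted genes. Single components given as a reference (Trim25, Tbk1, Irf3, the eIF2alpha kinases, Ifnb1, Unc93b1, Cxcl10, Ccl3, Ccl4) were added after their values were seen. Promoter windows were read from RefSeq tables on GRCm38.p6. The alternatives were a filter on dim probe sets, quantile normalization, median centring, the methods' t-test, limma's array weights and its trended robust prior, replicate blocks, other probe set rules and each array left out in turn. Tables were handled with Python 3.11.15 and pandas 2.3.3, and figures drawn with matplotlib 3.10.9. Marker genes without a probe set of their own, Ly6a among them, were not analysed here.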

Additional observations from a re-analysis of the deposited data

How the results depend on the processing

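With 3 arrays per group and 1 control array apart from the others, the data limit how far the differences can be read, and signal over background is unknown. Leaving out 1 array at a time gave log2 fold changes of 1.06 to 2.22 for Ddx58, 0.36 to 1.40 for Ifih1, 0.75 to 1.42 for Dhx58, 0.84 to 1.59 for Eif2ak2, -0.25 to 0.11 for Tlr3 and -0.05 to 0.19 for Ticam1. The median of the 7 genes ran from 0.36 to 1.40, that of the interferon genes from -0.07 to 0.04, of the eIF2 arm from -0.12 to 0.15 of the other Toll-like receptors from -0.03 to 0.10, of the cytokine list from -0.11 to 0.38, of the RIG-I and MAVS regulators from 0.03 to 0.15 and of the signalling list from 0.03 to 0.16. Of the 7 genes, 0 to 4 were higher at an adjusted p under 0.05 from limma, 0 to 4 at an unadjusted p under 0.05 and 0 to 4 at over 2-fold and p under 0.01. The first upper end stands beside 826 named genes (2.69%) without control replicate 3. For the unadjusted thresholds the share of all named genes was not computed in any alternative run. Over all probe sets 0 to 1418 were higher and 0 to 914 lower at an adjusted p under 0.05. All upper ends of these counts, and those of Ddx58, Ifih1, Dhx58 and Eif2ak2, are without control replicate 3.

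Probe sets higher at an adjusted p under 0.05 numbered 2 after quantile normalization, 1 after median centring and 2 with array weights, which also gave 1 lower and placed 3 of the 7 genes at over 2-fold and p under 0.01. The methods' t-test gave 0 of the 7 genes at an unadjusted p under 0.05, and a filter at the median moved the cytokine list from -0.05 to 0.60 over 8 genes. A longer ISRE (AGAAANNGAAA) was in 0 of 6 windows, and the gene strand alone gave 2. The causes were not tested.

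Deviations of arrays with the same replicate number in the sample titles had r of 0.156, -0.171 and -0.169. They were taken from means of 3 arrays per group, so they cannot settle whether these numbers pair the arrays. With the title number as a replicate block Ddx58 had 1.51 (adjusted p = 0.463 from limma), and no call of the 7 genes changed. A second number in the labels is shared by 2 pairs only, and its meaning is not stated; as a replicate block it leaves control replicate 3 and KO replicate 2 without weight and gave Tlr3 0.20, a median of the 7 genes of 1.34, 4 genes at over 2-fold and p under 0.01, 0.03 for the interferon genes and 0.42 for the cytokine list. The 2 pairs that share it had deviations with r of 0.156 and 0.162. Ddx58, Ifih1, Dhx58, Eif2ak2 and Mavs kept their direction in every alternative run, and their side of an adjusted p of 0.05 in all except the first 4 without control replicate 3.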
